A study of Schizosaccharomyces pombe with 6 samples.

Results

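The 6 genes mcm2, mcm3, mcm4, mcm5, mcm6 and mcm7 of fission yeast encode the subunits of the MCM helicase. They were followed here as stretches of chromosome on which RPA was mapped, not as transcripts. The genes were taken by name from the reference annotation, and all 6 had at least 2 array probes inside them. They hold 75 of 42430 probes used (11 in mcm2, 13 in mcm3, 13 in mcm4, 18 in mcm5, 12 in mcm6 and 8 in mcm7), and a further 132 probes lie within 3 kb of them. In all, 8246 annotated genes, 4167 of them protein-coding, had 2 or more probes.

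The 6 MCM proteins form a ring that is loaded around DNA at origins before S phase and unwinds the parental strands once replication starts. Unwinding exposes single-stranded DNA, which RPA, a complex that includes Ssb1, coats and protects. Hydroxyurea (HU) inhibits ribonucleotide reductase and so slows forks for want of deoxyribonucleotides, and Rad3, the fission yeast kinase of the ATR family, is the checkpoint kinase that responds to RPA-coated DNA. RPA at an MCM gene therefore reports on the DNA of that locus and says nothing of how much MCM protein the cells hold.

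The rad3∆ group had 3 arrays of cdc25-22 cells that also lack rad3 (delta-rad3 cdc25-22 in the labels). The WT group had 3 arrays of cdc25-22 cells with rad3 intact. Both groups thus carry cdc25-22, a temperature-sensitive allele of the phosphatase that drives entry into mitosis. Cultures of both were held for 4 h at 36.5 °C, returned to 25 °C and given 6 mM HU. Every sample title has the number 60, whose unit is not given there. The input channel of rad3∆ array 3 is labelled cdc25-23 and its IP channel cdc25-22. The labels do not say whether arrays came from separate cultures, so the spread between arrays may be partly technical.

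Each array compared immunoprecipitated (IP) DNA with input DNA in 2 colours, and every value below is log2(IP/input) with the median nuclear probe of the array set to 0. A negative value is therefore less RPA than at the median probe and not absence of RPA. Precision is limited by there being 3 arrays a strain. The IP channel of rad3∆ array 2 was dim: 79.6% of its probes were well above background, against 94.2% to 99.5% on the other arrays. In the rad3 gene, 24 of 32 probes were well above background in the input of every WT array and of no rad3∆ array, as the labels state.

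The deposited files give probe positions without sequences, and at all 6 loci these positions matched the ASM294v3 reference. The stretches of RefSeq ASM294v3 below come from the 2 members at either end of the range. They are the targets of the 2 highest coding probes of mcm3 and of the 2 lowest probes of mcm6 by the mean of all 6 arrays, read 5′ to 3′ on the gene's strand, with no letters in capitals.
mcm3 target at III:373618-373677: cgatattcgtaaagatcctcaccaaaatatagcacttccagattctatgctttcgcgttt
mcm3 target at III:374082-374140: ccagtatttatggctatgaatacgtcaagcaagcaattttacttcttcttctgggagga
mcm6 target at II:3882925-3882983: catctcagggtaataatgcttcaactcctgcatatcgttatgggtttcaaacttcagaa
mcm6 target at II:3880593-3880652: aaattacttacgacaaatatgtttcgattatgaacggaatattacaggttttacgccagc
Over the first mcm3 target, RPA stood at 0.80, 1.19 and 0.77 on rad3∆ arrays 1, 2 and 3, against 1.16, 1.20 and 1.21 on WT arrays 1, 2 and 3. Over the first mcm6 target, the start of the coding sequence, it averaged -1.71 ± 0.18 in rad3∆ and -1.36 ± 0.17 in WT (SD, n = 3 each). Every array was above the median probe at the mcm3 target and below it at the mcm6 target. The G+C content of these 2 targets was 38.3% and 39.0%.

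RPA differed widely between the 6 genes, although their products act in 1 complex. It was highest over mcm3, lay nearer the array median over mcm4, mcm5 and mcm7, and was low over mcm2 and lowest over mcm6, in both strains. Genes with a fitted value of at least 0.5, a 1.41-fold excess over the median probe, and an adjusted p below 0.05 (limma, Benjamini-Hochberg over all 8246 genes) count as enriched, and those at or below -0.5 as depleted. By that rule, 1 member was enriched (mcm3) and 1 depleted (mcm6) in rad3∆ and likewise in WT. Among all genes, 18.3% were enriched and 20.5% depleted in rad3∆, and 17.9% and 21% in WT. A count of 1 of 6 in either direction is near those shares, so the counts do not set the MCM genes apart. The median fitted value of the members was 0.06 in rad3∆ and 0.08 in WT, beside -0.03 and -0.02 for all protein-coding genes.

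mcm3 encodes a subunit that neighbours Mcm5 in the ring, and the gene lies at III:371443-375324 on the minus strand. Its mean over 13 probes was 0.38, 0.88 and 0.72 on rad3∆ arrays 1, 2 and 3, and 0.55, 0.70 and 1.06 on WT arrays 1, 2 and 3. The arrays of the 2 strains overlapped, and all 6 lay above the median probe. The averages were 0.66 ± 0.26 in rad3∆ and 0.77 ± 0.26 in WT (SD, n = 3 each). The fitted values, which weigh both dye orientations equally, were 0.71 ± 0.12 in rad3∆ and 0.81 ± 0.12 in WT (SE; limma, adjusted p = 0.00099 and 0.00050). These fitted values are 1.63-fold and 1.76-fold over the median probe. They placed mcm3 at percentile 94.2 of protein-coding genes in rad3∆ and 97.0 in WT. Of its 13 probes, 8 were enriched in rad3∆ and 12 in WT, where 18.3% of all probes were enriched in either strain.

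mcm6 encodes one of the subunits of the Mcm4, Mcm6 and Mcm7 group, whose complex has helicase activity of its own in vitro, and the gene lies at II:3880098-3883057 on the minus strand. Its mean over 12 probes was -1.07, -0.60 and -1.42 on rad3∆ arrays 1, 2 and 3, and -0.84, -0.67 and -0.88 on WT arrays 1, 2 and 3. All 6 arrays lay below the median probe, and the rad3∆ arrays spread on both sides of the WT arrays. The averages were -1.03 ± 0.41 in rad3∆ and -0.80 ± 0.11 in WT (SD, n = 3 each). The fitted values were -1.09 ± 0.12 in rad3∆ and -0.86 ± 0.12 in WT (SE; limma, adjusted p = 0.00019 and 0.00044), at percentiles 2.64 and 6.67 of protein-coding genes. These fitted values are 0.469 and 0.553 of the level at the median probe. All 12 probes were depleted in rad3∆ and 8 in WT, beside 19.7% of all probes in either strain. The dim IP of rad3∆ array 2 bears on this gene, since 7 of the 12 probes were not well above background there. With the 5 probes that were well above background on every array alone, the fitted values were -1.09 in rad3∆ and -0.92 in WT. That filter acts on the measured IP signal itself.

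mcm2, whose product pairs with Mcm5 at the gate through which DNA enters the ring, lies at II:1191208-1194142 on the minus strand. Its 11 probes averaged -0.48, -0.30 and -0.61 on rad3∆ arrays 1, 2 and 3, and -0.48, -0.41 and -0.44 on WT arrays 1, 2 and 3. All 6 arrays were below the median probe, with the WT arrays inside the range of the rad3∆ arrays. The fitted values of -0.48 ± 0.09 in rad3∆ and -0.46 ± 0.09 in WT (SE; limma, adjusted p = 0.0019 and 0.0023) fell just short of the threshold of -0.5, so mcm2 was not called depleted. Centring on the mode of each array in place of the median gave -0.59 in rad3∆ and -0.58 in WT, which passed. Of its probes, 4 were depleted in rad3∆ and 5 in WT, and 5 were not well above background in the IP of rad3∆ array 2.

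The genes mcm5, mcm4 and mcm7 were called in neither strain. They lay at percentiles 67.7, 65.8 and 46.9 of protein-coding genes in rad3∆, and 73.6, 68.3 and 47.1 in WT. mcm5, the other side of that gate, lies at I:2815661-2820694 on the plus strand. It averaged 0.16, 0.35 and 0.16 on rad3∆ arrays 1, 2 and 3, and 0.35, 0.31 and 0.30 on WT arrays 1, 2 and 3, all above the median probe. Its fitted values were 0.21 in rad3∆ and 0.31 in WT (limma, adjusted p = 0.064 and 0.014), both short of the 0.5 threshold. mcm4, at III:900388-903425 on the plus strand, encodes a subunit with a long regulatory tail that the DDK kinase phosphorylates when origins fire. It averaged 0.03, 0.17 and 0.23 on rad3∆ arrays 1, 2 and 3, and 0.19, -0.08 and 0.45 on WT arrays 1, 2 and 3. The WT arrays of mcm4 fell on both sides of the median probe and enclosed the rad3∆ arrays. mcm7, at II:3717577-3720039 on the minus strand, averaged -0.05, -0.15 and -0.02 on rad3∆ arrays 1, 2 and 3, and 0.02, -0.18 and -0.05 on WT arrays 1, 2 and 3. Its values lay between -0.18 and 0.02 on all 6 arrays, and none of its 8 probes was called enriched or depleted in either strain (limma). Of single probes, 2 in rad3∆ and 1 in WT were enriched in mcm4 (of 13), and 3 and 4 in mcm5 (of 18), against 18.3% of all probes in either strain.

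**Figure D1:**
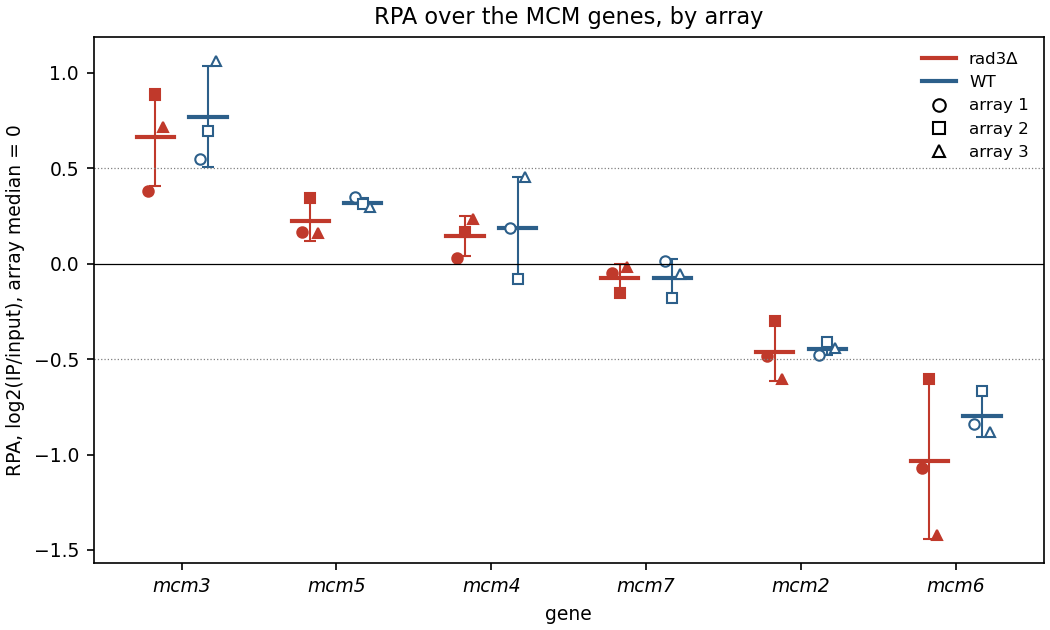
Mean log2(IP/input) over the probes inside each MCM gene (y axis, array median = 0) for the 6 genes (x axis), with rad3∆ arrays left (filled red) and WT arrays right (open blue). Symbols are arrays 1 to 3, horizontal bars are means and whiskers are SD (n = 3); dotted lines mark 0.5 and -0.5. mcm3 lies above 0 and mcm2 and mcm6 below 0 on every array, and the strains overlap for every gene.

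**Figure D2:**
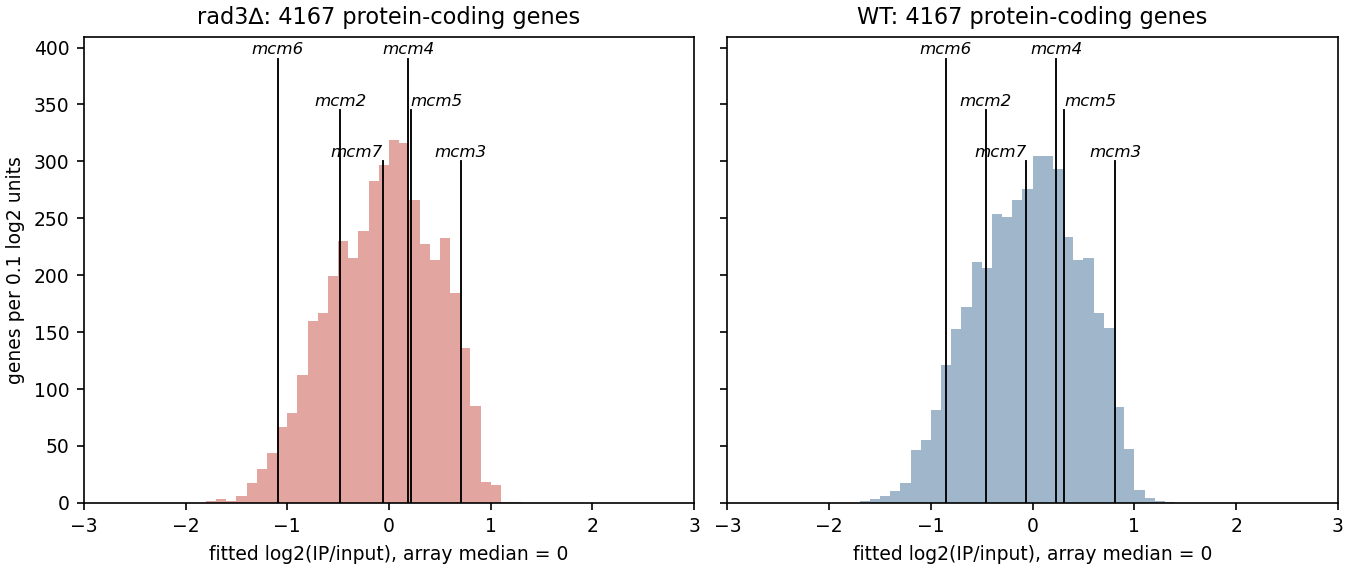
Histograms of the fitted log2(IP/input) of 4167 protein-coding genes (x axis) in rad3∆ (left) and WT (right), as genes per bin (y axis), with the 6 MCM genes marked by lines whose heights carry no value. The members span the distribution, mcm6 at percentiles 2.64 and 6.67 and mcm3 at 94.2 and 97.0.

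The order of the genes was compared within arrays, where the 6 arrays of both strains each give 1 difference per pair of genes. Over the 15 pairs, 14 had the same sign on 6 of 6 arrays. Each of these had an exact two-sided sign-flip permutation p = 0.03125, the smallest that 6 arrays allow, and p = 0.0335 after Benjamini-Hochberg adjustment over the 15 pairs. The order was mcm3, mcm5, mcm4, mcm7, mcm2 and mcm6, from high to low. The exception was mcm5 against mcm4, adjacent in that order, whose difference of 0.11 ± 0.20 (SD, n = 6 arrays) was positive on 4 of 6 arrays (exact permutation p = 0.25). Between the ends, mcm3 exceeded mcm6 by 1.63 ± 0.33 over all arrays, by 1.69 in rad3∆ and 1.57 in WT. With normexp background correction of the scanner signals, 8 of those 14 pairs kept 1 sign on all arrays, and 0 passed after adjustment. Arrays that share a slide share its dye orientation and are not fully independent.

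Among the 6 genes, mcm5 had the largest decline from start to end in both strains. The 6 probes nearest the start of mcm5 averaged 0.41 ± 0.16 in rad3∆ and 0.51 ± 0.08 in WT (SD, n = 3 each), while the 6 nearest its end averaged 0.04 ± 0.17 in rad3∆ and 0.04 ± 0.11 in WT. The annotated mcm5 transcript ends in a 3′ UTR of 2509 bp that runs through most of the antisense gene trk1, a potassium transporter. Restricted to its 8 coding probes, mcm5 stood at 0.28 ± 0.17 in rad3∆ and 0.37 ± 0.09 in WT, and its other 10 probes at 0.18 ± 0.11 and 0.28 ± 0.11. The fall along mcm5 continued past it. The 3 kb upstream averaged 0.47 ± 0.11 in rad3∆ and 0.49 ± 0.17 in WT, and the 3 kb downstream -0.22 ± 0.15 and -0.30 ± 0.20, with every array above 0 upstream and below 0 downstream.

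**Figure D3:**
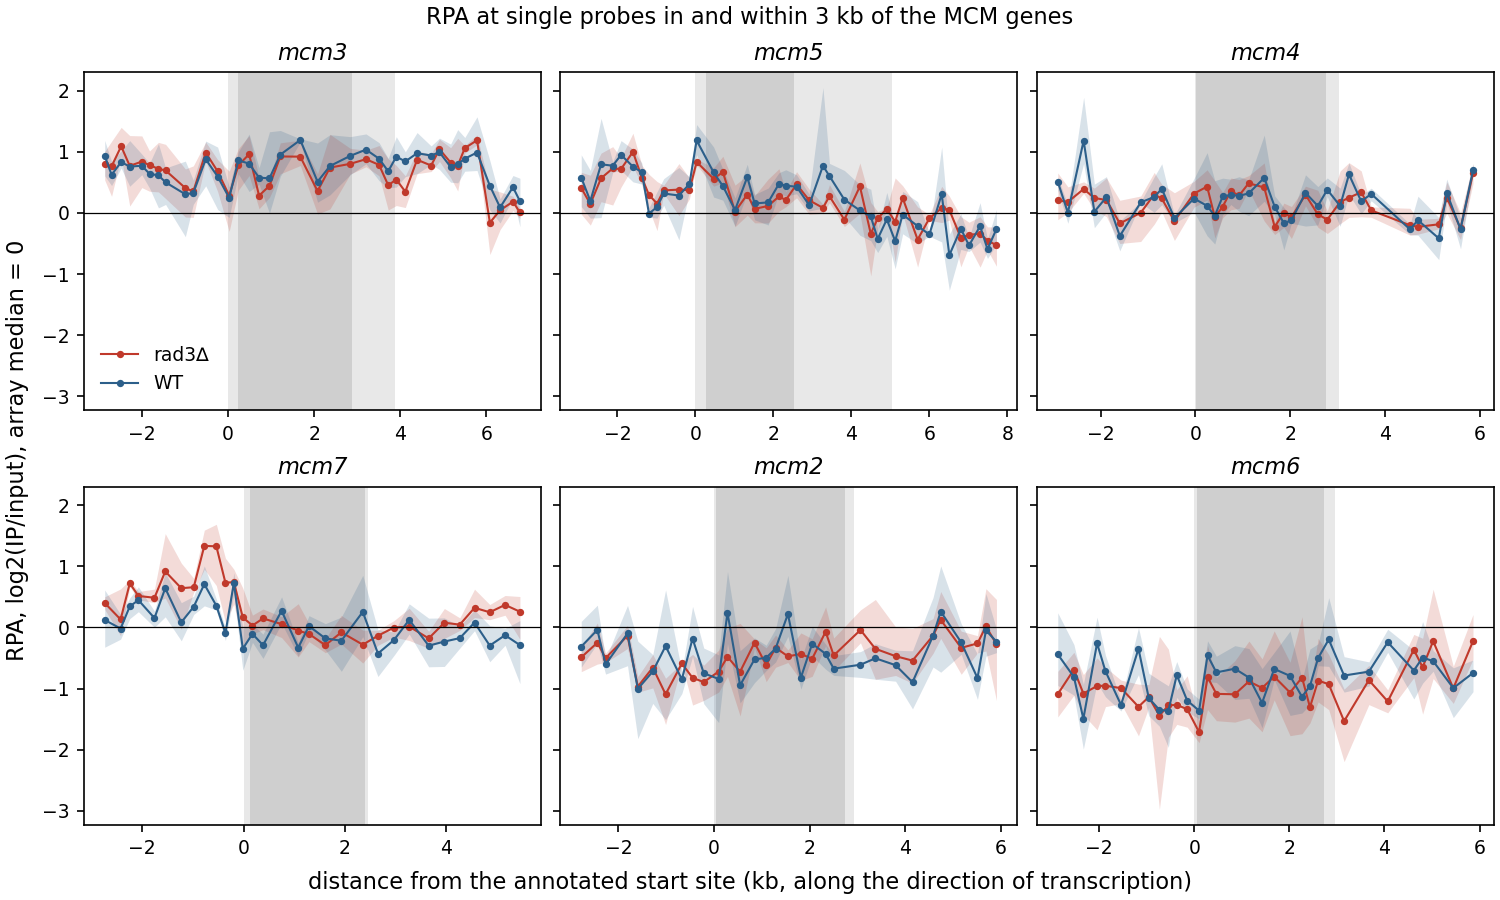
log2(IP/input) at single probes (y axis, array median = 0) against distance from the annotated start site in kb along the direction of transcription (x axis), for each MCM gene and its 3 kb flanks. Lines are means of 3 arrays and bands their range, rad3∆ in red and WT in blue; light grey is the transcript and dark grey its coding stretch. The means lie above 0 at all 13 probes of mcm3 and below 0 at all 12 of mcm6, and RPA declines along mcm5 and is high upstream of mcm7 at 1.33 in rad3∆, against 0.71 and 0.35 at the same 2 probes in WT.

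The levels of the members followed those of their surroundings. The 3 kb upstream of mcm3 averaged 0.74 ± 0.25 in rad3∆ and 0.65 ± 0.28 in WT, and the 3 kb downstream 0.58 ± 0.12 and 0.71 ± 0.24. Those of mcm6 averaged -1.13 ± 0.43 in rad3∆ and -0.93 ± 0.30 in WT upstream, and -0.76 ± 0.14 and -0.66 ± 0.18 downstream. Gene minus flanks was then fitted for all 8246 genes as the mean of both strains (limma), which called 8.67% of genes higher and 11.1% lower than their flanks. For mcm3 the fitted difference was 0.04 ± 0.07 (SE, adjusted p = 0.72), for mcm6 -0.01 ± 0.08 (adjusted p = 0.96), for mcm2 0.03 ± 0.07 (adjusted p = 0.79), for mcm4 0.06 ± 0.07 (adjusted p = 0.62) and for mcm5 0.14 ± 0.07 (adjusted p = 0.19). Of the members, mcm7 alone was called, at -0.33 ± 0.07.

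In 1 kb bins, mcm3 sat in a run of 24 kb, from 16 kb before to 8 kb past its start site. Over that run the mean of the 6 arrays stayed above the median probe, although a bin within it had no value. The outermost upstream bin was close to the median probe, at -0.03 in rad3∆ and 0.04 in WT. On the mean of the 6 arrays, the bin 1 to 2 kb inside mcm3 was the highest within 25 kb of the gene, at 0.92 ± 0.23 in rad3∆ and 1.07 ± 0.20 in WT. Of its 5 protein-coding neighbours within 3 kb, 4 were enriched in both strains, as were 13.1% of all protein-coding genes. The neighbours lie side by side and some share probes with mcm3 or with each other, so the count is not of separate results. Fitted values in rad3∆ and WT were 0.62 and 0.85 for qcr9, a respiratory chain subunit that overlaps the mcm3 transcript, 0.79 and 0.68 for mug174, 0.78 and 0.69 for srp68, of the signal recognition particle, and 0.71 and 0.62 for cdc31, the centrin. The fifth, bqt3 near the downstream edge of the run, was called in neither strain, at 0.13 and 0.31.

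mcm6 sat in the mirror image, a run of 27 kb below the median probe from 15 kb before to 12 kb past its start site. On the mean of the 6 arrays, the lowest bin within 25 kb was the 1 kb directly upstream of mcm6, at -1.29 ± 0.59 in rad3∆ and -1.17 ± 0.25 in WT. All 4 protein-coding neighbours within 3 kb were depleted in both strains, as were 17.8% of all protein-coding genes. They lie side by side in the run and some overlap, so the count is not of separate results. Fitted values in rad3∆ and WT were -0.74 and -0.61 for gea1, an exchange factor of Arf proteins, -1.35 and -1.17 for sap10, a splicing factor, -1.10 and -0.95 for gfh1, of the gamma-tubulin complex, and -0.76 and -0.75 for ubc8, a ubiquitin-conjugating enzyme.

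The other loci had weaker surroundings. mcm2 lay in a run below the median probe of at least 33 kb that reached the edge of the window, and of its neighbours mlo2 was depleted (-0.90 in rad3∆, -0.65 in WT), while sfb3 and SPBC4.06 were not. mcm4 lay in a run of 7 kb above the median probe. SPCC24B10.03, past the downstream end of that run, was enriched (0.57 in rad3∆, 0.62 in WT), and rpn1302 and SPCC24B10.02C were called in neither strain. mcm5 ended a run of 23 kb that began 19 kb before its start site, and SPAC1B2.06 within it was enriched in WT alone (0.42 in rad3∆, 0.57 in WT), a difference that was not called between strains (limma, adjusted p = 0.82). The genes cox6, trk1 and grs1 around mcm5 were called in neither strain. mcm7 lay only partly in a run of 3 kb below the median probe, from 1 to 4 kb past its start site. The first 1 kb of the gene was outside that run, and dnt1 downstream and suc22 upstream were uncalled.

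**Figure D4:**
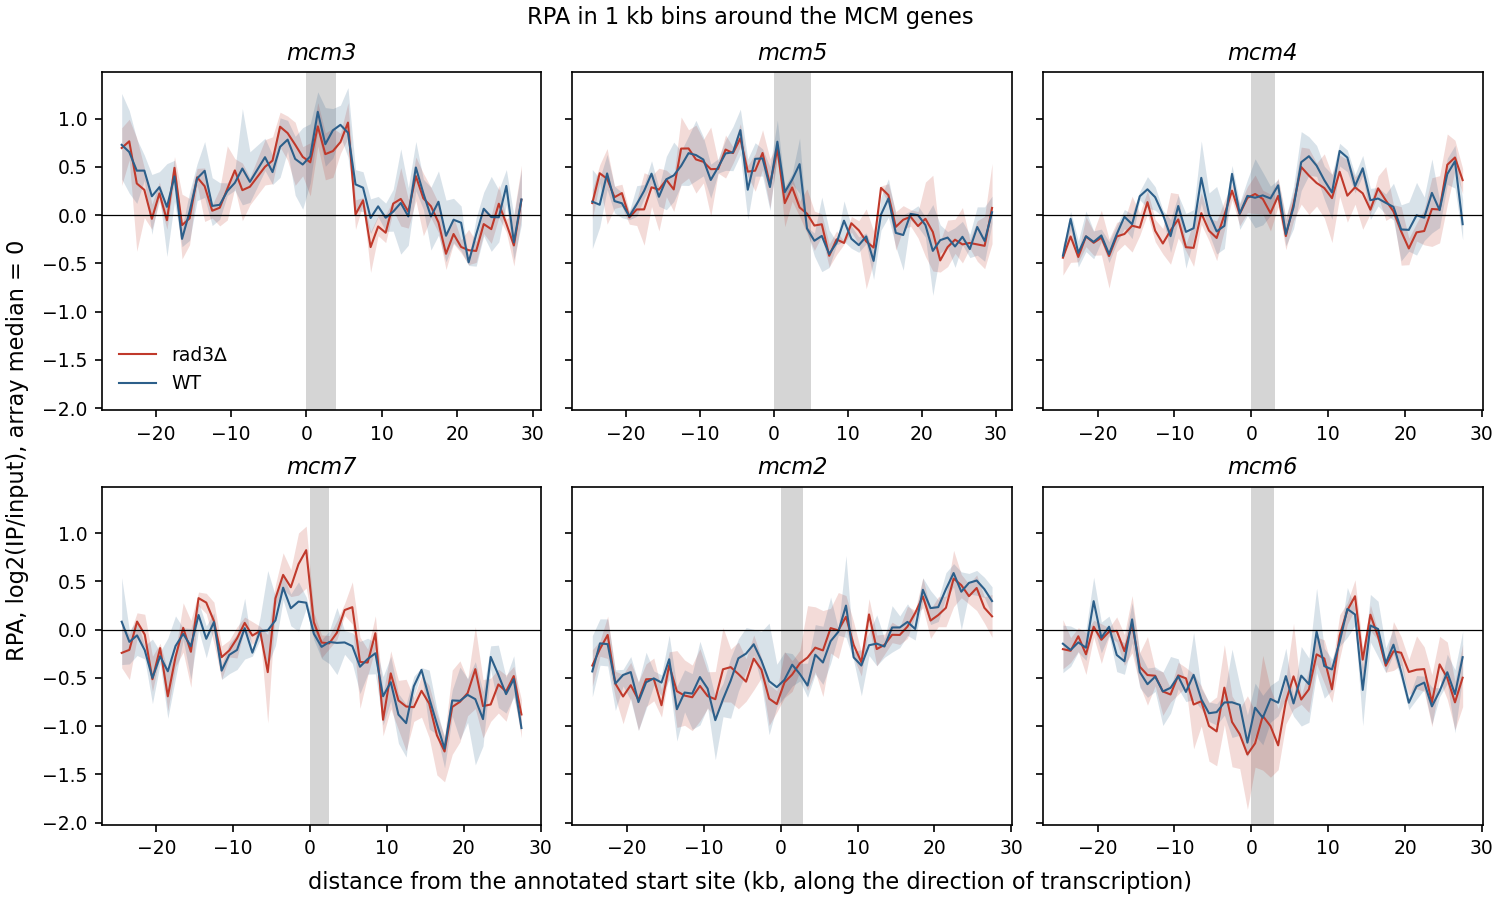
Mean log2(IP/input) in 1 kb bins (y axis, array median = 0) against distance from the start site in kb (x axis) within 25 kb of each MCM gene (grey). Lines are means of 3 arrays and bands their range, rad3∆ in red and WT in blue. mcm3 sits on a rise of 24 kb, mcm6 in a trough of 27 kb and mcm5 at the downstream edge of a run of 23 kb.

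The features around the genes that the choice of members did not use were mixed. A+T-rich islands were windows of 500 bp with at least 75% A+T and no coding sequence, merged where they overlapped, 399 on the reference chromosomes. Such islands, which fission yeast origins favour, lay within 3 kb of 21.7% of protein-coding genes. Of the members, mcm7 had one 0.062 kb away and mcm3 one 1.09 kb away, while the other 4 were 14.4 to 34.9 kb from the nearest. The island near mcm3, taken with 500 bp on either side, averaged 0.64 ± 0.16 in rad3∆ and 0.70 ± 0.24 in WT. The 6 genes had 38.0% to 40.3% G+C, above the median of 36.8% for protein-coding genes, whose percentiles 5 and 95 were 33.0% and 41.7%. The ACGCGT motif bound by the MBF factor of the G1 to S transition, searched on both strands of the 250 bases before each start site, was in 0 of 6 members and in 2.64% of 5112 protein-coding genes. The overlapping core AACGCG was in mcm7 alone and in 5.03% of those genes. The absence of these letters from this window is not a statement on the factor.

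No difference in RPA between the strains was called over any of the 6 genes. Fitted differences, rad3∆ minus WT, were -0.02 for mcm2 (95% interval -0.31 to 0.27), -0.11 for mcm3 (-0.48 to 0.27), -0.04 for mcm4 (-0.35 to 0.27), -0.10 for mcm5 (-0.37 to 0.18), -0.24 for mcm6 (-0.62 to 0.15) and 0.00 for mcm7 (-0.28 to 0.28). The adjusted p-values in limma ran between 0.77 for mcm6 and 1.0 for mcm7. Over all genes, 0% were called higher and 0% lower, the lowest adjusted p was 0.098, while 468 genes were higher and 206 lower in rad3∆ before adjustment (p below 0.05), none of them a member. A p that misses the threshold does not show equal levels, and the intervals reach -0.62 at mcm6 and -0.48 at mcm3. All 6 members overlapped between the strains, as did all but 10.5% of genes. mcm6 was lower in rad3∆ on slides 1 and 3, by 0.23 and 0.54, and higher by 0.07 on slide 2, which holds the dim array. The median difference of the members was -0.07, against -0.03 for protein-coding genes, of which 57.2% had a difference below 0.

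The input signal, the denominator of the ratio, did not differ detectably between strains at the members. Centred on the array median, the fitted input differences of rad3∆ minus WT ranged from -0.09 for mcm2 to 0.07 for mcm7 (limma, adjusted p = 1.0 each). Among all genes, 0% were called higher and 0% lower in input, and before adjustment (p below 0.05) 8 genes were higher and 14 lower.

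Among the 6 genes and their 12 flanks, the strains stood furthest apart upstream of mcm7. The gene is divergent from suc22, the small subunit of ribonucleotide reductase, which is the enzyme HU inhibits. An A+T-rich island at II:3720101-3720650 lies between them. The stretch of it with the highest A+T, read on the strand of mcm7, is shown because RPA over the 3 kb that hold it was higher on every rad3∆ array than on any WT array, with runs of at least 12 A or T in capitals.
Island upstream of mcm7, II:3720245-3720544: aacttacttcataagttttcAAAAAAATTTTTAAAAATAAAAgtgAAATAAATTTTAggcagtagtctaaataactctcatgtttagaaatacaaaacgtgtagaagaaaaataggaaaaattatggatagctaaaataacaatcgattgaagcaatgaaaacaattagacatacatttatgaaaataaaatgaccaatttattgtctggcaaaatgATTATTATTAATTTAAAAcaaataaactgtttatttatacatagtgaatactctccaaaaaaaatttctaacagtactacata
This stretch of 300 bases is 78% A+T and holds 3 such runs, the longest of 22 bases. Its last printed base is the nearest to mcm7, at a gap of 205 bp. No annotated gene overlaps it.

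Over the 13 probes in the 3 kb upstream of mcm7, RPA averaged 0.76, 0.39 and 0.87 on rad3∆ arrays 1, 2 and 3, against 0.27, 0.20 and 0.32 on WT arrays 1, 2 and 3. Every rad3∆ array lay above every WT array. For that separation, the smallest two-sided exact permutation p of 3 arrays against 3, with slides ignored, is 0.1. Among gene bodies, 10.5% did not overlap between the strains in either direction, and no such share is given for flanks. All 13 probes had a higher fitted value in rad3∆, of which 3 had an unadjusted p under 0.05, as had 3.12% of all probes in that direction, and on 5 the arrays did not overlap, as on 4.79% of all probes. The probes about 0.8 and 0.5 kb upstream both averaged 1.33 in rad3∆, against 0.71 and 0.35 in WT. In the 1 kb directly upstream the mean was 0.82 ± 0.34 in rad3∆ and 0.28 ± 0.06 in WT (SD, n = 3 each). Over the island with 500 bp on either side it was 0.64 ± 0.24 and 0.16 ± 0.04. That span holds 8 probes, some of them inside mcm7. In a fit of the upstream flanks of all genes, the difference at mcm7 was 0.41 ± 0.12 (SE; limma, unadjusted p = 0.0062), which did not pass over 10505 flanks (adjusted p = 0.19), of which 0.343% passed. It passed without rad3∆ array 2 (0.53, adjusted p = 0.041), but with none of the other arrays left out (adjusted p = 0.17 to 0.99) nor with the replicate number as a block (adjusted p = 0.054). Without either array 3, the dye term absorbs the other array 3, so the difference rests on arrays 1 and 2 alone. Both of these fits gave 0.34 (limma, adjusted p = 0.99). This fit was chosen after the flank values had been seen. suc22 itself averaged 0.40 ± 0.11 in rad3∆ and 0.16 ± 0.07 in WT, a difference that did not pass (limma, adjusted p = 0.68).

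Inside mcm7 the strains overlapped, and the gene was lower than the mean of its 2 flanks. In WT it was below the upstream flank only, since the downstream flank averaged -0.19 ± 0.09 there against -0.07 ± 0.10 in the gene. Gene minus flanks was -0.53, -0.42 and -0.54 on rad3∆ arrays 1, 2 and 3, and -0.01, -0.25 and -0.17 on WT arrays 1, 2 and 3. It was negative on 6 of 6 arrays and further below 0 on every rad3∆ array than on any WT array. For scale, 10.5% of gene bodies did not overlap between the strains, a share not given for gene minus flanks. The fitted value over both strains was -0.33 ± 0.07 (SE; limma, adjusted p = 0.011). The call was lost without WT array 3 (adjusted p = 0.17) and without rad3∆ array 3 (adjusted p = 0.15), fits that keep a single array with a red IP. By strain, the fit gave -0.51 in rad3∆ (adjusted p = 0.020, where 3.17% of genes were called lower) and -0.15 in WT (adjusted p = 0.34, where 1.43% were). The difference between strains, -0.36 ± 0.13, did not pass (limma, unadjusted p = 0.019, adjusted p = 1.0). No gene passed that comparison, in which 137 were higher and 182 lower before adjustment (p below 0.05).

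**Figure D5:**
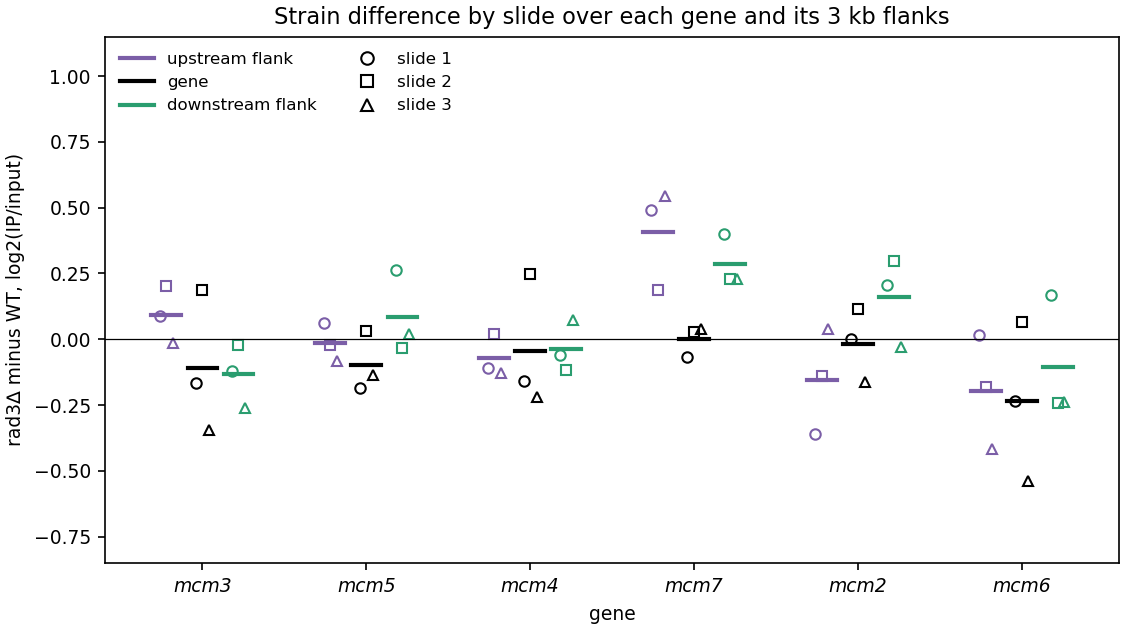
Difference in log2(IP/input), rad3∆ minus WT array of the same slide (y axis), over the upstream 3 kb, the gene and the downstream 3 kb of each MCM gene (x axis). Symbols are slides 1 to 3 and bars their means. All 3 slides lie above 0 in both flanks of mcm7, with means of 0.41 upstream and 0.29 downstream, while the gene itself is at 0.

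The genes whose pattern over the 6 arrays was most like each member, by root mean square difference among protein-coding genes with at least 4 probes over 20 kb away, were tal1 and tti1 for mcm3 (0.068 and 0.069), SPAC4G8.09 and adl1 for mcm6 (0.065 and 0.107), ept1 and rib3 for mcm2 (0.067 and 0.073), gid1 and ppn1 for mcm4 (0.071 and 0.074), dph7 and rad54 for mcm5 (0.051 and 0.059), and vps5 and fsf1 for mcm7 (0.040 and 0.042).

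Other genes of the replication machinery also lay on both sides of the array median. Of 24 genes of origin licensing and firing, 22 were measured. In rad3∆ 2 of these were enriched and 6 depleted, and in WT 1 and 5, beside 18.3% and 20.5% of all genes in rad3∆ and 17.9% and 21% in WT. The origin recognition subunit gene orc4 was enriched in both strains (0.58 in rad3∆, 0.73 in WT), while orc5, the GINS subunit gene sld5, the DDK kinase gene hsk1 and the fork protection gene swi3 were depleted in both, between -0.79 and -0.58. The others called in 1 strain were mcb1, which encodes an MCM-binding protein (0.54 in rad3∆, 0.49 in WT), the licensing factor gene cdt1 (-0.50 and -0.41), rad4, which encodes a scaffold of origin firing (-0.58 and -0.45), and orc1 (-0.50 in rad3∆, not called, and -0.67 in WT). Of 21 genes of polymerases, clamp and RPA, 17 were measured, of which 3 were enriched and 3 depleted in rad3∆, and 4 and 2 in WT, to be read against the same shares of all genes. Those enriched in both were dpb4 and spb70, subunits of polymerases epsilon and alpha, and the clamp loader gene rfc4. The primase gene spp2 and ssb1, the gene of the RPA subunit itself, were depleted in both. The polymerase delta subunit gene cdm1 was called in rad3∆ (-0.67, against -0.42 in WT) and the RPA subunit gene ssb2 in WT (0.48 in rad3∆, 0.55 in WT). No gene of either list was called different between the strains (limma). swi1 had the widest difference, 0.83 (adjusted p = 0.16), but shares 22 of its 27 probes with the annotated span of rad3, which is deleted in rad3∆.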

How the data were processed

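RPA (Ssb1) ChIP-on-chip data of 3 rad3∆ and 3 WT arrays were used, grouped by the strain labels. The labels' fields on molecule and extraction speak of RNA, while each array is labelled IP against input, and the channel labels were followed. The deposited files are Agilent Feature Extraction output whose processed signals are intensity values, per the file headers background-subtracted, spatially detrended and dye-normalized, and not scaled between arrays. Headers and the submitters' processing notes name software version 10.7.3.1, and the headers of both replicate 1 arrays 10.7.1.1. IP was green on arrays 1 and 2 and red on array 3 of each strain, per the labels.

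The deposited log10 ratio is red over green processed signal and was used as a check only. The log2 ratio of IP to input processed signal was taken at each probe and centred on each array's median nuclear probe, without loess, after 211 flagged probes of 42641 were left out. Probes were assigned to genes by their midpoint. Headers place positions on an NCBI build named Feb2002. Base composition in 100 kb segments matched ASM294v3 without offset in 108 of 126 segments, those of all members included. The other segments, on chromosome I from 3800001, were not used for genes. Gene means (at least 2 probes) of all 6 arrays were fitted in limma 3.58.1 (R 4.3.3) with a mean per strain and a dye orientation term. The fit had 3 residual and 5.78 prior degrees of freedom, tests were two-sided, and p-values were Benjamini-Hochberg adjusted over all genes. The limma step was tested on simulated data. Member pairs were compared by exact permutation.

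Arrays with the same replicate number shared a slide, per the file headers, and their deviations from the strain means correlated at 0.37, 0.32 and 0.55 over genes, so the numbers pair the arrays. The main fit had a dye orientation term but no slide term, so its intervals and p-values do not use this pairing. Only the replicate block does. The members and gene lists were chosen with earlier results of these data known. Named genes are the members, the protein-coding genes within 3 kb, the 2 genes most like each member, and the called genes of 2 replication lists. Alternatives changed the background correction (normexp with offset 50, run on median spot signals because mean signals were not used here), centring, scaling, loess, probe filters, base composition, the dye term, the replicate block and each array in turn.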

Additional observations from a re-analysis of the deposited data

Results flagged for a closer look

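The 3 kb downstream of mcm7 had RPA above the median probe on every rad3∆ array and below it on every WT array. Over its 10 probes it averaged 0.12, 0.12 and 0.06 on rad3∆ arrays 1, 2 and 3, against -0.28, -0.11 and -0.16 on WT arrays 1, 2 and 3. The difference of 0.29 ± 0.11 (SE) did not pass in a limma fit over 10531 downstream flanks (unadjusted p = 0.019, adjusted p = 0.28), of which 0.57% passed. On 9 of the 10 probes the fitted value was higher in rad3∆. The arrays of the 2 strains did not overlap over this flank, as over 10.5% of gene bodies in either direction.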

How the results depend on the processing

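mcm3 stayed enriched and mcm6 depleted in both strains under all 17 alternatives, with fitted values of 0.55 to 0.85 and -1.25 to -0.90 in rad3∆, and 0.67 to 0.89 and -1.05 to -0.76 in WT. mcm2 became called as depleted in both strains with mode centring (the mode lay 0.0018 to 0.24 above the median). In rad3∆ it was also called with probes well above background alone (-0.58, 6 of 11 probes) or without rad3∆ replicate 2 (-0.54). In WT it was called without WT replicate 3 (-0.55), a fit whose dye term rests on rad3∆ array 3 alone. The WT arrays left in that fit averaged -0.48 and -0.41 over mcm2, neither past -0.5. Over all genes, 1507 were enriched and 1687 depleted in rad3∆ (1474 and 1728 in WT), and mode centring gave 1034 and 2145 in rad3∆ (985 and 2231 in WT). Calls numbered 2060 in rad3∆ and 2071 in WT with at least 4 probes per gene, and 1561 and 1563 with protein-coding genes alone, where fewer genes are tested. Strain differences then numbered 4 and 1, none of them a member. The replicate block gave 2912 calls in rad3∆, 2959 in WT and 0 strain differences, and changed no call of a member. Input differences numbered 2 with arrays scaled to one spread, and 0 to 2 with an array left out. Member pairs numbered 0 with normexp, and 0 to 0 with an array left out, where 5 arrays cannot pass. For gene minus flanks, 0 to 1 member was called with an array left out. The loss of these calls was not tested for a cause.

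The remaining changes of sign were all of values that passed no test. Strain differences turned to 0.0120 (mcm2) and 0.00064 (mcm7) with normexp, and at mcm7 to 0.00054 with scaled arrays, 0.0180 with probes well above background, 0.0112 with mode centring and 0.0016 with the G+C trend removed. With an array left out they spanned -0.090 to 0.057 (mcm2), -0.29 to 0.011 (mcm3), -0.15 to 0.045 (mcm4) and -0.051 to 0.061 (mcm7). Gene minus flanks turned to -0.0066 (mcm3) and 0.17 (mcm6) with flanks of 1.5 kb, to -0.0938 (mcm3) and -0.27 (mcm5) with flank probes outside protein-coding genes, which gave no value for mcm6, and to -0.0177 (mcm2) with the replicate block. With an array left out it spanned -0.028 to 0.085 (mcm2), -0.0050 to 0.085 (mcm3), -0.019 to 0.13 (mcm4) and -0.053 to 0.036 (mcm6). Input differences turned to -0.0176 (mcm4) and -0.0476 (mcm5) with normexp, -0.0279 (mcm5) with probes well above background and -0.0090 (mcm4) with scaled arrays, and with an array left out spanned -0.046 to 0.051 (mcm4), -0.036 to 0.068 (mcm5) and -0.14 to 0.013 (mcm6). Dim IP signal on rad3∆ array 2 limits mcm6 and mcm2 most.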
